A study of Mus musculus with 6 samples.

Results

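Long noncoding RNAs are transcripts with no long open reading frame, and several of the most abundant ones in neurons stay in the nucleus, apart from cytoplasmic ribosomes. The RNAs followed here include RNAs of nuclear bodies (*Malat1* in nuclear speckles, *Neat1* as the scaffold of paraspeckles). Others are read from either the maternal or the paternal chromosome of imprinted domains (*Meg3*, *Rian*, *Mirg*, *Snhg14*, *Kcnq1ot1*, *Peg13*). The remaining RNAs are the neuronal RNA *Miat*, also known as Gomafu, and *Snhg11*, a neuronal host gene of a small nucleolar RNA. These 10 RNAs were followed in a ribosome editing assay, in which an RNA is marked by C-to-U edits when a ribosomal protein fused to a cytidine deaminase comes near it. They were chosen by name, with earlier results of these data known. Each gene identifier was matched to its symbol in GENCODE mouse release 21. Of the 10, 7 were among the 31053 genes listed for each library, and 6 of these 7 had edits in all 6 libraries, against 8046 genes of the whole table. *Rian*, *Snhg14* and *Peg13* were not listed.

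The libraries were made from primary cortical neurons of wild type (WT) C57BL/6J embryos (E18), cultured with floxuridine from DIV 3 (day in vitro) against dividing cells. Neurons were infected at DIV 6 with an adeno-associated virus (AAV), treated with doxycycline (Dox) at 1 µg per ml for 48 h and collected at DIV 14. RPL10A-STAMP, in which mouse Rpl10a is fused to APOBEC1, was expressed in 3 libraries and RPL22-STAMP, in which mouse Rpl22 is fused to APOBEC1, in the other 3. All 6 therefore share the type of vector, the Dox and a synapsin promoter that drives the Dox-dependent transactivator. The paper chose this promoter for neuronal expression, while reads come from every cell of the dish. Each variant had its own viral construct, so a difference in virus or in its expression cannot be told apart from the variant. The study's methods call the replicates biological, its text on correlations between libraries calls them technical, the labels name no culture or litter, and the p values below measure the spread between these libraries. No library without a fused deaminase was analysed here, so the level of edits in its absence is not subtracted from any value. RNA was selected by its poly(A) tail.

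The measure is EPR, the C-to-U edits called on a gene divided by the reads counted on that gene. Whether edits and reads were both limited to exons is not given in the sources used here. Edits and reads both increase with RNA length and abundance, so EPR is a rate of editing and not a level of RNA. Edits and reads were not used separately here, the depth behind each value is unknown, and an EPR listed at 0 can mean reads without edits or no reads. Between 9892 and 11195 genes had an EPR above 0 in a library, and their median EPR lay between 0.00907 and 0.0154. To set each RNA against the rest of its own library, its percentile among those edited genes was used. All 10 neuron markers examined were edited in all 6 libraries. Of 12 markers of astrocytes, oligodendrocytes, microglia and endothelium, the microglial genes *P2ry12* and *Aif1*, the endothelial *Cldn5* and the oligodendrocyte gene *Mog* were at 0 in all 6, and *Gfap*, *Slc1a3*, *Aqp4* and *Mbp* were edited in all 6. The median of the mean percentiles was 80.0 for those 4 glial genes and 69.0 for the 10 neuron markers. In which cells the edits were made was not tested.

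The bases that APOBEC1 can edit differ between these RNAs. The following 100-base exon stretches on GRCm38 are shown because each has about the C and GC content of its whole RNA, with every C in capitals, for the RNA with the highest C content (*Miat*), the RNA with the lowest (*Malat1*), the RNA with the lowest GC content (*Kcnq1ot1*) and *Meg3*. They were taken from the reference genome, and the positions of edits were not used here. The stretch of *Miat*, chr5:112221710-112221809 on the minus strand, holds 25 C. That of *Malat1*, chr19:5802539-5802638 on the minus strand, holds 17. That of *Kcnq1ot1*, chr7:143292053-143292152 on the minus strand, holds 20, and that of *Meg3*, chr12:109559414-109559513 on the plus strand, holds 24.
Miat: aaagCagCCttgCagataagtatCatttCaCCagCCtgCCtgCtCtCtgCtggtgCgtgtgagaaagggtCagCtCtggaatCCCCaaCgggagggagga
Malat1: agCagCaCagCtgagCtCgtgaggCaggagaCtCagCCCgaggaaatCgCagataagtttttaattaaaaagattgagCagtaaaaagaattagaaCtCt
Kcnq1ot1: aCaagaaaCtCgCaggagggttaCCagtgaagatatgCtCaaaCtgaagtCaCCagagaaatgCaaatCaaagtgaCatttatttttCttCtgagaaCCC
Meg3: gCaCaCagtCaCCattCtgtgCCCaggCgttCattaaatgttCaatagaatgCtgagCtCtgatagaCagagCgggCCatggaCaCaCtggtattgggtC

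Edits were found on all 7 listed RNAs. The order by mean EPR over the 6 libraries was *Meg3* (0.0434), *Snhg11* (0.0352), *Kcnq1ot1* (0.0344), *Miat* (0.0262), *Malat1* (0.0248), *Mirg* (0.0147) and *Neat1* (0.00388). None of the 6 neighbouring pairs in this order passed 0.05 in an exact sign-flip permutation test within libraries (two-sided, Benjamini-Hochberg adjusted p between 0.25 and 1.0 over the 6 pairs). The smallest p of this test with 6 libraries is 0.03125 before adjustment, so a pair on its own could not pass after it. The test also pooled the variants, so it does not decide whether these RNAs differ. The order was not the same with each variant. With RPL10A-STAMP, *Kcnq1ot1* came first and *Miat* came before *Neat1* only. With RPL22-STAMP, *Meg3* came first and *Kcnq1ot1* came before *Neat1* only.

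**Figure D1:**
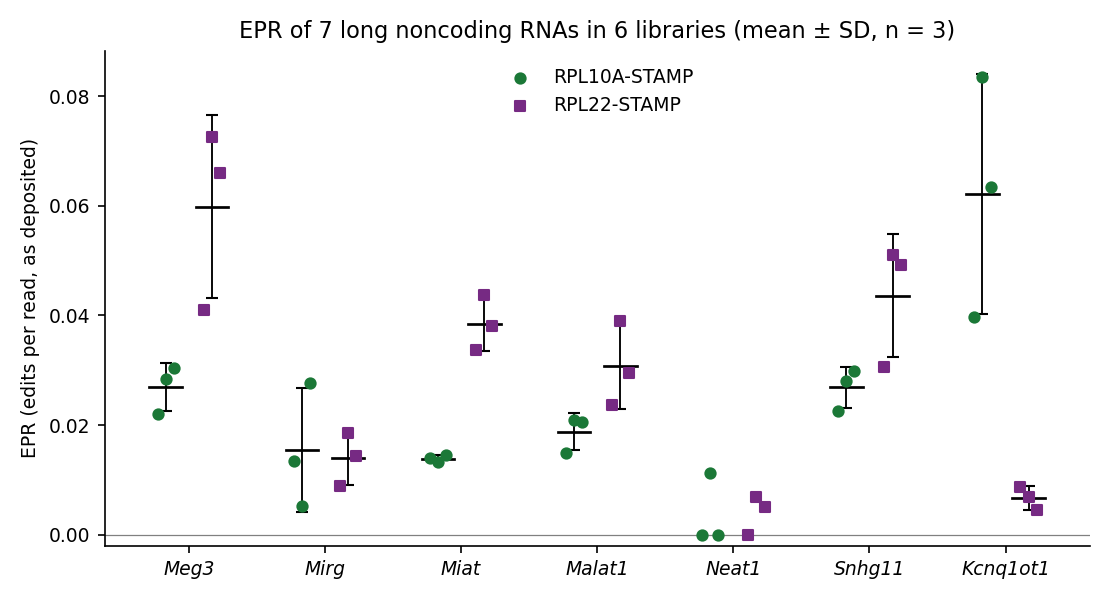
EPR (edits per read, linear axis) of the 7 listed RNAs in the 3 RPL10A-STAMP libraries (green circles) and the 3 RPL22-STAMP libraries (purple squares), each symbol 1 library, with bars for the mean and SD except for *Neat1*, which is listed at 0 in 3 libraries. The RPL22-STAMP libraries lie above all RPL10A-STAMP libraries for *Meg3*, *Miat*, *Malat1* and *Snhg11*, and below all of them for *Kcnq1ot1*.

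The variants were compared with limma on log2(EPR + 0.01), with libraries first scaled to a common median gene, over the 8046 genes edited in all 6 libraries, with fold changes of RPL10A-STAMP over RPL22-STAMP. Fold changes on this scale understate those of genes with low EPR. Of the 6 RNAs tested, *Meg3*, *Miat*, *Malat1* and *Snhg11* were higher with RPL22-STAMP, *Kcnq1ot1* was higher with RPL10A-STAMP, and *Mirg* did not pass the threshold. Among all genes tested, 14.3% were called, 5.77% as higher with RPL22-STAMP and 8.51% as higher with RPL10A-STAMP. The median log2 fold change of the 6 was -0.79, against -0.012 over all genes tested. The RNAs were chosen with earlier results of these data known, so this contrast is descriptive only and was not tested.

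*Meg3* (ENSMUSG00000021268) is a maternally expressed RNA of the imprinted Dlk1-Dio3 domain, on the plus strand at chr12:109541001-109571726 (GRCm38), with 18089 exon bases. For *Meg3*, replicates 1, 2 and 3 of RPL10A-STAMP gave EPR values of 0.0221, 0.0284 and 0.0304, and those of RPL22-STAMP gave 0.0410, 0.0725 and 0.0660. The lowest RPL22-STAMP library lay above the highest RPL10A-STAMP library. The means were 0.0270 ± 0.00433 and 0.0598 ± 0.0167 (SD, n = 3 each), 2.22-fold higher with RPL22-STAMP (two-sided exact permutation test, p = 0.10, which is the minimum for 3 libraries per variant). EPR separated the variants without overlap in 34.4% of the genes tested, with RPL22-STAMP on top in 6.21% and RPL10A-STAMP in 28.2%. *Meg3* was above the median gene of its library in all 6, by 1.85-fold to 5.87-fold over the median of genes edited in all libraries. Its mean percentile with RPL10A-STAMP was 77.1 ± 0.616, against 96.0 ± 0.679 with RPL22-STAMP (SD, n = 3). The log2 fold change was -1.20 (standard error 0.14, limma adjusted p = 0.00472), and 1.16% of the genes tested had a more negative value. Of its exon bases, 6.79% overlap *Gm26906* on the opposite strand, a gene edited in 1 library only, and 4.18% lie in exact copies of at least 50 bases found elsewhere in the genome.

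*Mirg* (ENSMUSG00000097391) lies further along the same domain, on the plus strand at chr12:109729764-109749460, and its transcripts contain many microRNAs. For *Mirg*, replicates 1, 2 and 3 of RPL10A-STAMP gave EPR values of 0.0135, 0.00526 and 0.0276, and those of RPL22-STAMP gave 0.00881, 0.0186 and 0.0144. The lowest and the highest value were both from RPL10A-STAMP, the groups overlapped, and *Mirg* lay below *Meg3* in each library. Its log2 fold change was -0.19 (standard error 0.29, limma adjusted p = 0.688). Its percentile ranged from 11.8 to 74.6, the widest range within 1 variant among these RNAs. *Rian* (ENSMUSG00000097451), a snoRNA host between *Meg3* and *Mirg* at chr12:109603940-109661716, was not listed. *Gm26945*, a listed gene within the span of *Rian* on the same strand that shares no exon base with it, was edited in 4 libraries with an EPR of at most 0.0417.

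*Miat* (ENSMUSG00000097767) is a spliced RNA known from punctate nuclear domains of neurons, on the minus strand at chr5:112213228-112229395, with 9293 exon bases. For *Miat*, replicates 1, 2 and 3 of RPL10A-STAMP gave EPR values of 0.0139, 0.0133 and 0.0145, and those of RPL22-STAMP gave 0.0336, 0.0438 and 0.0381. The groups were far apart compared with the spread inside each. The means were 0.0139 ± 0.000590 and 0.0385 ± 0.00507 (SD, n = 3 each), 2.77-fold higher with RPL22-STAMP (exact permutation test, p = 0.10), and the log2 fold change was -1.28 (standard error 0.13, limma adjusted p = 0.00444). Its mean percentile with RPL10A-STAMP was 50.1 ± 7.28, near the middle of the edited genes, against 92.6 ± 1.01 with RPL22-STAMP (SD, n = 3; difference of RPL10A-STAMP minus RPL22-STAMP -42.5 points, exact permutation test p = 0.10). Of its exon bases, 24.3% overlap the exons of *Gm26953* on the opposite strand, a gene listed at 0 in all 6 libraries.

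*Malat1* (ENSMUSG00000092341), a retained RNA of nuclear speckles, is unspliced and lies on the minus strand at chr19:5795690-5802672. For *Malat1*, replicates 1, 2 and 3 of RPL10A-STAMP gave EPR values of 0.0149, 0.0210 and 0.0206, and those of RPL22-STAMP gave 0.0237, 0.0390 and 0.0294. The groups did not overlap, but RPL22-STAMP replicate 1 was only slightly above RPL10A-STAMP replicate 2. The means were 0.0188 ± 0.00338 and 0.0307 ± 0.00770 (SD, n = 3 each), 1.63-fold higher with RPL22-STAMP (exact permutation test, p = 0.10). In each library *Malat1* lay above the library's median gene, at percentile 63.2 ± 1.82 with RPL10A-STAMP and 88.8 ± 2.43 with RPL22-STAMP (SD, n = 3). The log2 fold change was -0.76 (standard error 0.13, limma adjusted p = 0.0119). The call was lost without the scaling to the median gene (-0.49, limma adjusted p = 0.172) and without RPL10A-STAMP replicate 3 (limma adjusted p = 0.0564), with the same sign.

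*Neat1* (ENSMUSG00000092274), the paraspeckle scaffold, is a neighbour of *Malat1* on the same strand at chr19:5824708-5845478. For *Neat1*, replicates 1, 2 and 3 of RPL10A-STAMP gave EPR values of 0, 0.0113 and 0, and those of RPL22-STAMP gave 0, 0.00690 and 0.00510. It was thus edited in 1 RPL10A-STAMP and 2 RPL22-STAMP libraries and was not among the genes tested. With the test extended to genes edited in 3 or more libraries, its log2 fold change was -0.15 (standard error 0.34, limma adjusted p = 0.841). Where it was edited it stood at percentile 16.7 to 37.6, and it was below *Malat1* in every library. C makes up 22.2% of its exon bases and 17.1% of those of *Malat1*. The 8 paraspeckle proteins examined were all edited in all 6 libraries, and none was called. By mean EPR, *Nudt21*, a cleavage factor subunit, was the highest of them (log2 fold change 0.024) and *Pspc1* the lowest (-0.062). Of 7 nuclear speckle proteins tested, *Son* was higher with RPL10A-STAMP (log2 fold change 0.87, limma adjusted p = 0.00801) and *Srrm2* was higher with RPL22-STAMP (-0.52, limma adjusted p = 0.0472), and 5 were not called. The call of *Srrm2* held in 2 of 15 alternatives and that of *Son* in 14.

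*Snhg11* (ENSMUSG00000044349) hosts a small nucleolar RNA in an intron and lies on the plus strand at chr2:158375638-158386145. GENCODE annotates it as protein coding, with a longest coding sequence of 261 bases, so its place among noncoding RNAs rests on its name. Exact copies elsewhere in the genome cover 6.70% of its exon bases, the most among the 7 listed RNAs. For *Snhg11*, replicates 1, 2 and 3 of RPL10A-STAMP gave EPR values of 0.0226, 0.0280 and 0.0299, and those of RPL22-STAMP gave 0.0306, 0.0510 and 0.0492. RPL22-STAMP replicate 1 was just above the highest RPL10A-STAMP library and the other two were well above it. The means were 0.0269 ± 0.00380 and 0.0436 ± 0.0113 (SD, n = 3 each), 1.62-fold higher with RPL22-STAMP (exact permutation test, p = 0.10), and the log2 fold change was -0.82 (standard error 0.14, limma adjusted p = 0.0123). Its percentiles, 77.0 ± 0.975 and 93.7 ± 1.06 (SD, n = 3), were close to those of *Meg3*. The call was lost without the scaling (-0.52, limma adjusted p = 0.172), without RPL10A-STAMP replicate 2 (limma adjusted p = 0.0508) and without RPL10A-STAMP replicate 3 (limma adjusted p = 0.0564). Of 18 other snoRNA host genes named, 6 were listed and *Snhg6* alone was edited in all 6 libraries, with a log2 fold change of -0.14 (limma adjusted p = 0.578).

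*Kcnq1ot1* (ENSMUSG00000101609) is a paternally expressed, unspliced antisense RNA of the imprinted Kcnq1 domain, on the minus strand at chr7:143203458-143296549, where it spans 93092 bases. For *Kcnq1ot1*, replicates 1, 2 and 3 of RPL10A-STAMP gave EPR values of 0.0397, 0.0834 and 0.0634, and those of RPL22-STAMP gave 0.00878, 0.00684 and 0.00447. This is the opposite direction to the other 4 called RNAs, and the lowest RPL10A-STAMP value was well above the highest RPL22-STAMP value. The means were 0.0622 ± 0.0219 and 0.00670 ± 0.00216 (SD, n = 3 each), 9.29-fold higher with RPL10A-STAMP (exact permutation test, p = 0.10). With RPL10A-STAMP its percentile was 93.3 ± 2.21, above each of the other listed RNAs, against 27.9 ± 18.2 with RPL22-STAMP (SD, n = 3), a difference of 65.4 points. The log2 fold change was 1.81 (standard error 0.22, limma adjusted p = 0.00470), and only 0.435% of the genes tested had a higher one. The call held under all 15 alternatives, as did those of *Meg3* and *Miat*. Exact copies of at least 50 bases elsewhere in the genome cover 3.51% of it, and no exon of another listed gene overlaps it on its own strand. Only 0.130% of it overlaps exons of *Kcnq1*, which was listed at 0 in all 6 libraries.

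**Figure D2:**
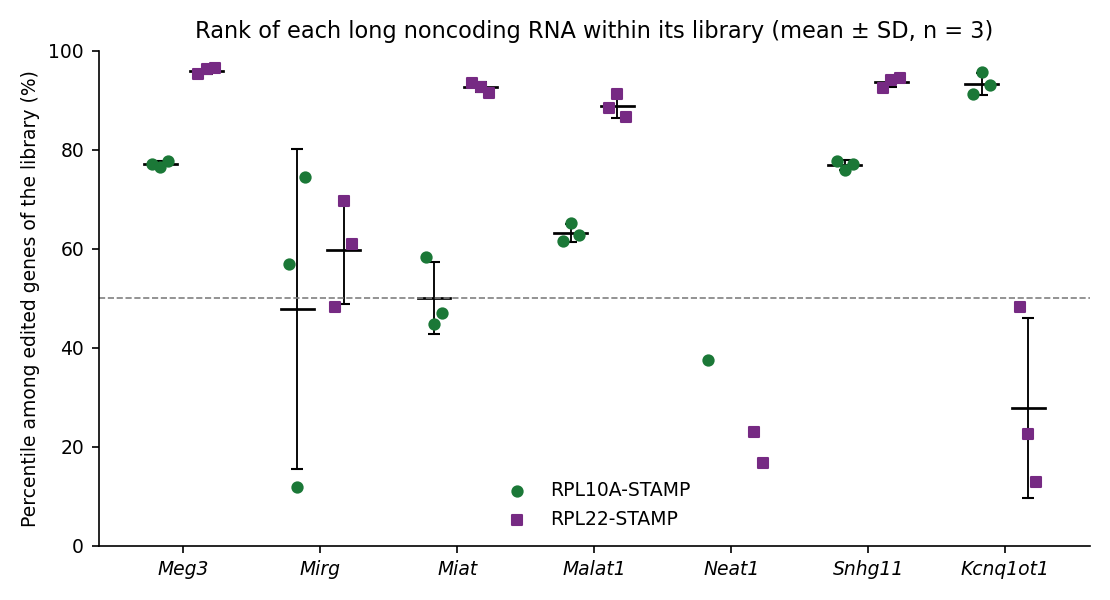
Percentile of each listed RNA among the genes with an EPR above 0 in the same library, with RPL10A-STAMP libraries as green circles, RPL22-STAMP libraries as purple squares and bars for the mean and SD (n = 3) where all libraries have a value. *Meg3*, *Miat*, *Malat1* and *Snhg11* sit at percentile 86.5 or above in every RPL22-STAMP library, whereas *Kcnq1ot1* sits at 91.2 or above in every RPL10A-STAMP library and at 48.1 or below in every RPL22-STAMP library.

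Percentiles use no scaling factor, but ranking also removes a shift shared by all genes of a library. All 5 called RNAs were also separated by percentile, without overlap between the variants. Such separation was seen in 36.6% of the genes tested. When EPR was divided by the share of C among the exon bases of each gene before ranking, the differences of RPL10A-STAMP minus RPL22-STAMP in percentile points were -21.0 for *Meg3*, -44.5 for *Miat*, -19.0 for *Malat1*, -17.7 for *Snhg11* and 59.3 for *Kcnq1ot1*. None of these changed direction. Among protein-coding genes of the library alone, the difference for *Kcnq1ot1* was 65.7 points and that for *Miat* was -42.4 points.

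Base composition varied among these RNAs. Transcript GC content was 55.1% in *Miat*, 51.9% in *Mirg*, 49.2% in *Meg3*, 44.8% in *Snhg11*, 42.5% in *Malat1* and 40.3% in *Kcnq1ot1*, around a median of 48.9% over all genes tested. *Kcnq1ot1* and *Malat1*, the RNAs of lowest GC content, moved in opposite directions. With each library's trend with GC content removed, the log2 fold change was 1.45 for *Kcnq1ot1*, -1.18 for *Meg3*, -1.02 for *Miat*, -1.04 for *Malat1* and -0.997 for *Snhg11*, with limma adjusted p between 0.00865 and 0.0109. With the trend with transcript length removed, the log2 fold change of *Kcnq1ot1*, the longest of them, was 1.13 in place of 1.81. It was -1.46 for *Meg3*, -1.45 for *Miat*, -0.88 for *Malat1* and -0.91 for *Snhg11*, and all 5 calls held.

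**Figure D3:**
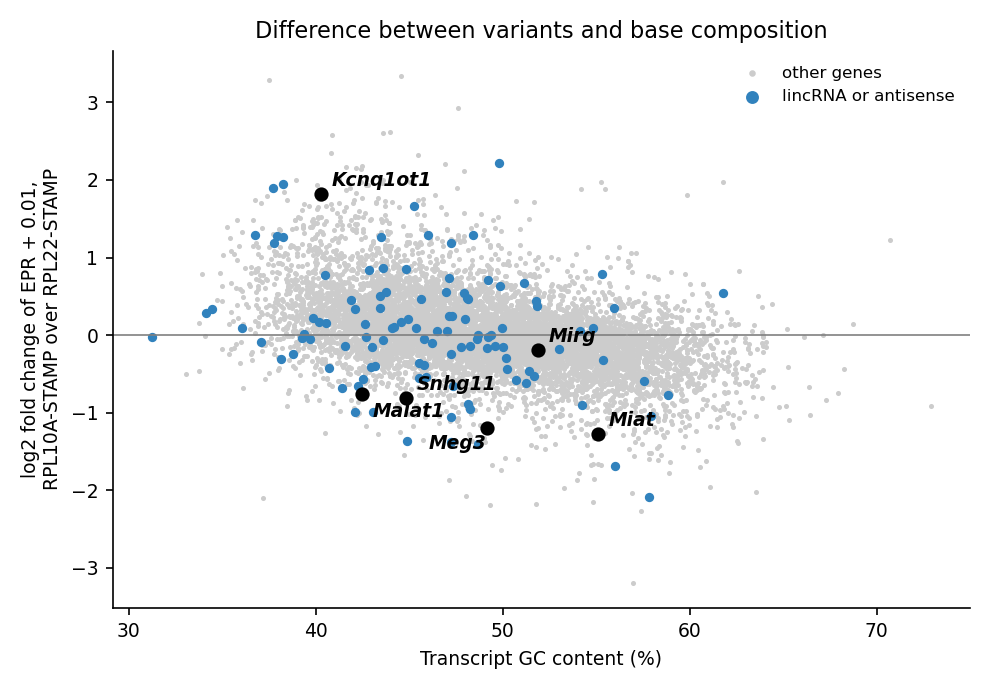
Log2 fold change of EPR + 0.01 (RPL10A-STAMP over RPL22-STAMP, vertical axis) against transcript GC content in percent for the genes edited in all 6 libraries, with lincRNA and antisense genes in blue, the 6 RNAs tested as labelled black points and other genes in grey. *Kcnq1ot1* stands high on the left at 40.3% GC, *Malat1* and *Snhg11* lie below most genes of their own GC content, and *Miat* lies below most genes on the right at 55.1%.

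Most genes annotated as long noncoding RNA were listed at 0, which can mean no edits or no reads. Of 8275 listed lincRNA and antisense genes, 7676 were at 0 in all 6 libraries, against 18242 of 31053 listed genes of all kinds. Of the lincRNA and antisense genes, 116 were edited in all 6, with a median percentile of 75.3 against 49.5 for all genes tested. Both sets passed a filter on EPR itself, and a gene with few reads passes it only at a high EPR. Depth is unknown, so this contrast does not show that long noncoding RNAs are edited more. Of the 116, 10 were called as higher with RPL10A-STAMP and 13 as higher with RPL22-STAMP. Calls made up 19.8% of the 116, or 17.1% without the RNAs described here, against 14.3% of all genes tested. The 5th to 95th percentile of their log2 fold changes ran from -1.22 to 1.29, against -0.74 to 0.92 for all genes tested. *Miat* was 6th and *Meg3* 7th from the most negative end of the 116, and *Kcnq1ot1* was 4th from the most positive. The largest called differences were in *Lncpint* (2.22, limma adjusted p = 0.0225), *4930570G19Rik* (1.95, limma adjusted p = 0.00444) and *Gm5165* (1.90, limma adjusted p = 0.0418) on the RPL10A-STAMP side. On the RPL22-STAMP side they were in *Gm27000* (-2.09, limma adjusted p = 0.0260), *D130017N08Rik* (-1.41, limma adjusted p = 0.00531) and *Pantr1* (-1.37, limma adjusted p = 0.00594). *Gm27000* had between 4.50 and 22.4 edits per counted read, so its edits exceeded its reads in every library. *Lncpint* had between 0.200 and 2.86, with more edits than reads in every RPL10A-STAMP library and fewer in every RPL22-STAMP library. These calls were lost under 9 and 10 of the 15 alternatives, and that of *Gm5165* under 9.

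Among 40 other nuclear or neuronal long noncoding RNAs, 27 were listed and 14 were edited in all 6 libraries. Of these 14, 3 were higher with RPL10A-STAMP, 2 were higher with RPL22-STAMP and 9 were not called. Calls made up 35.7% of the 14, against 14.3% of all genes tested, and the list was chosen with earlier results known. *Tug1*, an RNA found in nucleus and cytoplasm, had EPR values of 0.0617, 0.0917 and 0.0958 in the RPL10A-STAMP libraries and 0.0219, 0.0221 and 0.0177 in the RPL22-STAMP libraries (replicates 1, 2 and 3). Its groups were separated in the same direction as those of *Kcnq1ot1*, with a log2 fold change of 1.28 (limma adjusted p = 0.00523). *A330008L17Rik* (1.29, limma adjusted p = 0.00531) and *Lncpint* moved likewise. With the GC trend removed together with the replicate block, *Tug1* was 0.82 (limma adjusted p = 0.0694) and *A330008L17Rik* 0.79 (limma adjusted p = 0.0751). *Pantr1*, with EPR values of 0.0104, 0.0149 and 0.00736 in the RPL10A-STAMP libraries and 0.0242, 0.0413 and 0.0426 in the RPL22-STAMP libraries, moved with *Miat* and *Meg3*. *Xist*, the nuclear RNA that coats the inactive X chromosome, had a higher mean EPR than any of the 7 RNAs, 0.0685 ± 0.00361 with RPL10A-STAMP and 0.0898 ± 0.00958 with RPL22-STAMP (SD, n = 3). Its log2 fold change was -0.69 (limma adjusted p = 0.0330), called in 6 of 15 alternatives and lost without scaling (limma adjusted p = 0.345).

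**Figure D4:**
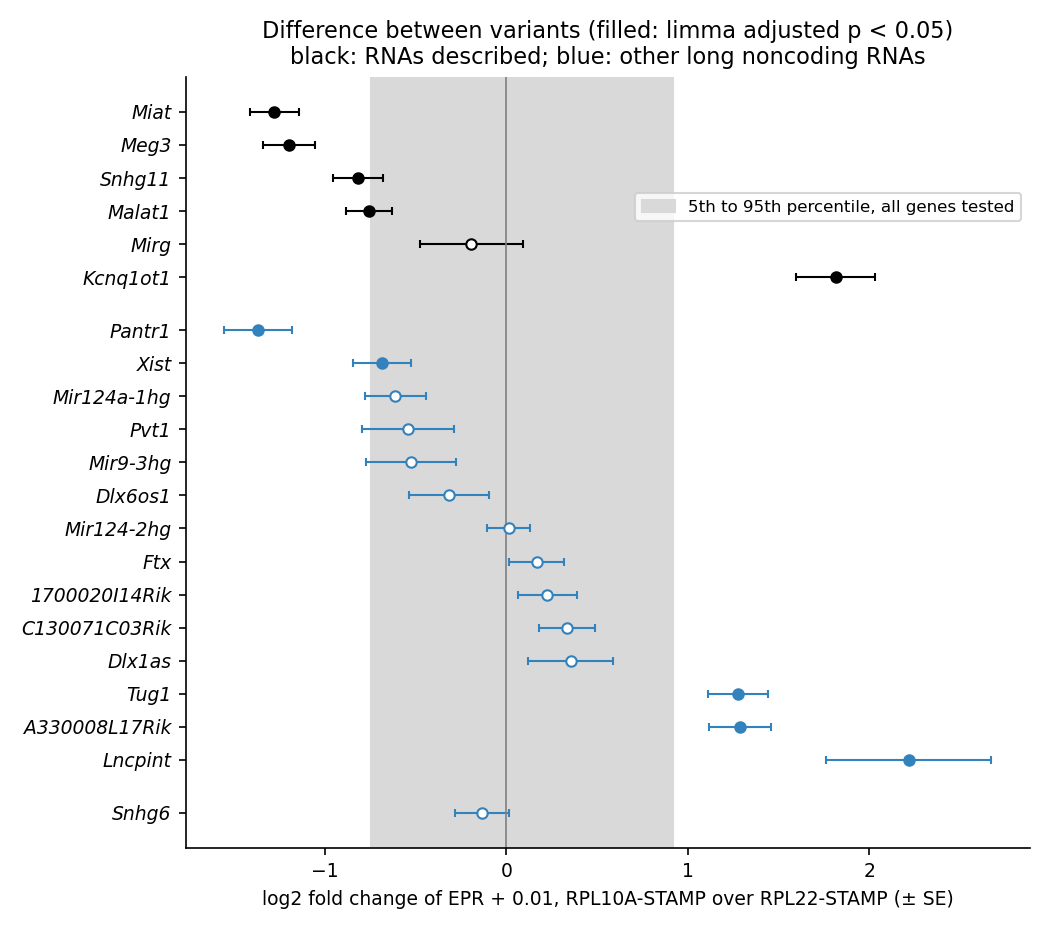
Log2 fold change of EPR + 0.01 (RPL10A-STAMP over RPL22-STAMP) with its standard error for the 6 RNAs tested (black), the 14 other long noncoding RNAs and *Snhg6* (blue), with filled points for limma calls and a grey band from the 5th to the 95th percentile of all genes tested, -0.74 to 0.92. *Miat*, *Meg3*, *Snhg11*, *Malat1* and *Pantr1* lie left of the band, and *Kcnq1ot1*, *Tug1*, *A330008L17Rik* and *Lncpint* lie right of it.

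Protein-coding neighbours of the imprinted RNAs were examined as a list of 26 genes in 4 domains, of which 10 were at 0 in all libraries and 11 were tested. In the Dlk1-Dio3 domain, the protein-coding genes *Dlk1*, *Rtl1* and *Dio3* were at 0 in all 6 libraries. *Begain*, which encodes a synaptic scaffold-associated protein, had EPR values of 0.0125, 0.0114 and 0.00835 in the RPL10A-STAMP libraries and 0.0385, 0.0747 and 0.0758 in the RPL22-STAMP libraries (replicates 1, 2 and 3). Its groups were separated in the direction seen for *Meg3*, with a log2 fold change of -2.02 (standard error 0.20, limma adjusted p = 0.00444). In the Kcnq1 domain, *Cd81* and *Nap1l4* were tested and neither was called (log2 fold changes -0.41 and -0.17).

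*Snhg14* (ENSMUSG00000100826), the long host RNA of the Snrpn-Ube3a domain at chr7:59307924-59975759 on the minus strand, was not listed, and it overlaps exons of *Ube3a*, which lies on the opposite strand, in 1803 bases. *Ube3a*, a ubiquitin ligase silenced on the paternal chromosome of neurons by this antisense RNA, had EPR values of 0.0468, 0.0625 and 0.0659 in the RPL10A-STAMP libraries and 0.0139, 0.0184 and 0.0185 in the RPL22-STAMP libraries (replicates 1, 2 and 3). The groups did not overlap, with a log2 fold change of 1.05 (limma adjusted p = 0.00472). With the GC trend removed together with the replicate block it was 0.56 (limma adjusted p = 0.101). The libraries were made with a stranded kit, but whether reads were counted by strand is not given in the sources used here. From the values used here, reads of *Snhg14* and *Ube3a* in the shared bases therefore cannot be told apart. *Ndn*, a paternally expressed gene of the same domain, was higher with RPL22-STAMP (0.0211 ± 0.00255 against 0.00530 ± 0.00382, SD, n = 3; log2 fold change -1.26, limma adjusted p = 0.0130, and 0.0564 without RPL10A-STAMP replicate 3).

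*Peg13* (ENSMUSG00000106847), a brain-expressed imprinted RNA at chr15:72805600-72810324 on the minus strand, was not listed either. It lies within the span of *Trappc9* on the same strand and shares no exon base with it. Positions of edits were not used, so whether edits on *Peg13* enter the value of *Trappc9* was not tested. *Trappc9*, which encodes a trafficking complex subunit, had an EPR between 0.179 and 0.465 and a mean percentile of 98.8, the highest of the 11 neighbours tested, with no difference called between the variants (log2 fold change 0.11, limma adjusted p = 0.841). *Kcnk9*, a potassium channel gene of the domain, was higher with RPL22-STAMP (0.0233 ± 0.00321 against 0.0151 ± 0.00223, SD, n = 3; log2 fold change -0.66, limma adjusted p = 0.0156). Its call held in 10 of 15 alternatives and was lost without scaling (limma adjusted p = 0.185), with the replicate block (0.0551), without RPL10A-STAMP replicate 2 (0.0539), without RPL10A-STAMP replicate 3 (0.0692) and with the GC trend removed together with the block (0.0661). The annotation classes of the unlisted RNAs were thinly listed as a whole, with 10 of 790 processed transcripts, the class of *Rian* and *Snhg14*, and 0 of 327 sense intronic genes, the class of *Peg13*.

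**Figure D5:**
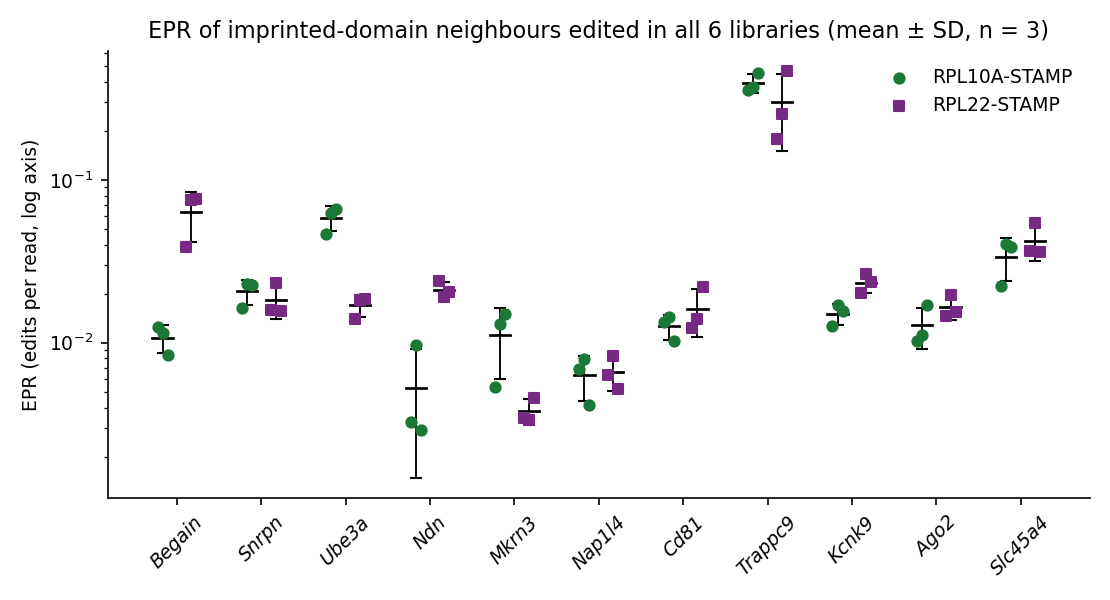
EPR (edits per read, log axis) of the 11 neighbours in the imprinted domains edited in all 6 libraries, in RPL10A-STAMP (green circles) and RPL22-STAMP (purple squares) libraries, with the mean and SD (n = 3). *Begain* and *Ndn* lie higher with RPL22-STAMP and *Ube3a* with RPL10A-STAMP, and *Trappc9* stands above all others in every library.

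The genes whose EPR was most like that of *Meg3* over the 6 libraries, by root mean square difference of log2(EPR + 0.01), were *Cacng7* (0.150), *Ctsb* (0.172) and *Galnt16* (0.174). For *Malat1* they were *Vamp2* (0.0594), *Atp6v1e1* (0.117) and *Syn1* (0.122), and for *Snhg11* they were *Atp6ap1* (0.104), *Nme1* (0.107) and *Slc25a23* (0.120). All 9 are protein-coding genes, as are 7923 of the 8046 genes edited in all 6 libraries. *Vamp2* had EPR values of 0.0161, 0.0194 and 0.0227 in the RPL10A-STAMP libraries and 0.0239, 0.0398 and 0.0302 in the RPL22-STAMP libraries (replicates 1, 2 and 3). *Vamp2* encodes a synaptic vesicle protein. Among the 10 neuron markers, *Camk2a* (-0.79, limma adjusted p = 0.0127), *Syn1* (-0.82, limma adjusted p = 0.00814) and *Gad2* (-0.54, limma adjusted p = 0.0446) were higher with RPL22-STAMP, and *Slc17a6* (1.48, limma adjusted p = 0.0185) was higher with RPL10A-STAMP. Of 15 alternatives, the call of *Syn1* held in 12, that of *Camk2a* in 10, that of *Slc17a6* in 9 and that of *Gad2* in 2. Of the 4 glial markers tested, none was called, with *Aqp4* the highest by mean EPR and *Mbp* the lowest.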

How the data were processed

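The data were 6 bulk RNA-seq libraries, 3 for each of RPL10A-STAMP and RPL22-STAMP. The authors aligned trimmed reads to mm10 with STAR (at most 10 locations for a read), used SAILOR to call C-to-U edits and featureCounts to count reads, and they deposited the ratio of edits to reads per Ensembl gene without normalization between libraries. Their annotation and strand setting are not given in the sources used here. GENCODE mouse release 21 holds 31011 of the identifiers and lacks 42.

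Percentiles were taken among genes with an EPR above 0 in a library. Libraries were scaled so that their medians over genes edited in all 6 equalled the geometric mean of those medians. The test was limma 3.58.1 (R 4.3.3) on log2(EPR + 0.01) (variance trend, Benjamini-Hochberg, threshold 0.05), after a test on simulated data. Single values were compared by exact permutation. Exact copies were sought with BLAST 2.17.0. The RNAs and gene lists were chosen with earlier results of these data known. Named list genes are those called or, failing that, the highest and lowest by mean EPR. Alternatives covered pseudocount, filter, scaling, GC content, length, replicate block and each library left out. Depth per gene is unknown, and intervals were not computed.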

Additional observations from a re-analysis of the deposited data

How the results depend on the processing

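All 5 calls among these RNAs kept their direction under the 15 alternatives. Without scaling between libraries 3 remained (*Meg3*, *Miat* and *Kcnq1ot1*), and with 1 library left out between 3 and 5, the lowest without RPL10A-STAMP replicate 3. Over all genes, 1149 were called, against 754 with genes edited in at least 3 libraries, 569 with no filter, 663 with the GC trend removed, and 373 (without RPL10A-STAMP replicate 3) to 874 with 1 library left out. Those last fits also rested on fewer libraries. Without scaling the median log2 fold change of all genes moved from -0.012 to 0.18, and the share of calls higher with RPL10A-STAMP from 59.6% to 88.1%. After scaling, deviations from the variant means had correlations of 0.0437, 0.0464 and -0.00546 between libraries of the same replicate number. Scaling removes a shift shared by all genes of a library, so these values cannot show whether cultures were shared. Before scaling, replicate 1 had the lowest median EPR over genes edited in all 6 with both variants (RPL10A-STAMP 0.0120, RPL22-STAMP 0.00907). With the replicate block 603 genes were called, and 227 with the GC trend removed together with the block, and the same 5 RNAs were called in each. The median of the mean percentiles of the 6 RNAs edited in all libraries was 73.6, and 91.0 over all listed genes with zeros included, a ranking in which most genes are at 0. With the order taken per C base, 4 of the 6 neighbouring pairs kept their order.

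Over 32 named genes and 15 alternatives, 21 of 480 log2 fold changes changed sign, none of them in a called gene, and the cause was not tested. Among called genes, 92 of 360 such combinations lost the call. Without scaling, *Mirg* was 0.013, *Snhg6* 0.079, *Pspc1* 0.062, *Aqp4* 0.20 and *Mbp* 0.088. With the GC trend removed, with or without the replicate block, *Nudt21* was -0.26 and *Mbp* 0.26. With the length trend removed, *Snhg6* was 0.052, *Nudt21* -0.040 and *Mbp* 0.018. With 1 library left out, *Mirg* ranged from -0.45 to 0.12, *Nudt21* from -0.055 to 0.10, *Pspc1* from -0.17 to 0.067, *Aqp4* from -0.41 to 0.090 and *Mbp* from -0.23 to 0.12.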
